A study of Mus musculus with 8 samples.

Results

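The 10 genes described here act in blood vessel growth and matrix remodeling, and *Vegfa*, *Prok2*, *Plau*, *Plaur*, *Adam8*, *Thbs1*, *Eng*, *Mfge8*, *Amotl2* and *Rapgef3* were followed across sorted monocytic cells of mouse bone marrow (BM). They were taken by gene symbol from a table of 16160 genes, in which all 10 were found, and all 10 passed the filter on low counts, *Prok2* only through 1 tCD115- and 1 tCD115+ library. The genes were chosen by their measured expression difference between the CD115- and CD115+ cells of tumor-bearing mice, so that difference is described here without a test. CD115 is the receptor of M-CSF, and cells of the monocytic gate (CD11c- CD11b+ Ly6G- SiglecF- Ly6C hi) were separated by its presence on the surface.

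The groups were CD115- M-MDSCs (monocytic myeloid-derived suppressor cells; tCD115-) and CD115+ M-MDSCs (tCD115+) of EL4 tumor-bearing (TB) mice, taken 21 days after inoculation, and CD115- monocytes (nCD115-) and CD115+ monocytes (nCD115+) of tumor-free, naive mice, with 2 RNA-Seq libraries each. All animals were wild-type C57BL/6 mice, and EL4 is a mouse lymphoma line that was injected under the skin, so the cells came from marrow and not from the tumor. The labels call the 2 libraries of a group biological replicates. The methods describe young adult mice, male or female, for the study in general, but the labels and methods do not state the number, age or sex of the mice behind each library, and p-values measure only the spread between these libraries.

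VEGF-A, the product of *Vegfa*, is the main secreted signal for the growth of blood vessels and acts on receptors of endothelial cells, and myeloid cells are known to be one of its sources in tumors. Growing vessels must also cross the matrix, which is opened by proteases such as urokinase (*Plau*), held at the cell surface by its receptor (*Plaur*), and by membrane metalloproteinases such as ADAM8. Thrombospondin-1 (*Thbs1*) restrains vessel growth, while endoglin (*Eng*) is a co-receptor of the TGF-beta family and MFG-E8 (*Mfge8*) a secreted bridge between apoptotic cells and integrins.

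The libraries held 69692398 to 95353798 reads assigned to genes (median 91432632), and 13211 genes were tested. Levels are given as CPM, the depth-scaled read count of a gene, with library sizes scaled by TMM, and at the median depth 1 read was 0.0109 CPM. *Csf1r*, which encodes CD115, stood at 283 and 490 CPM in the tCD115- libraries and at 891 and 869 CPM in tCD115+, while the nCD115- libraries stood at 825 and 728 CPM, against 1159 and 1333 CPM in nCD115+. CD115- cells thus still held *Csf1r* mRNA, and the naive difference was not called (edgeR adjusted p = 0.0805). Genes were called where they changed 2-fold or more and their adjusted p was under 0.05. In bulk RNA, fewer cells of a type and less RNA per cell cannot be told apart.

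**Figure D1:**
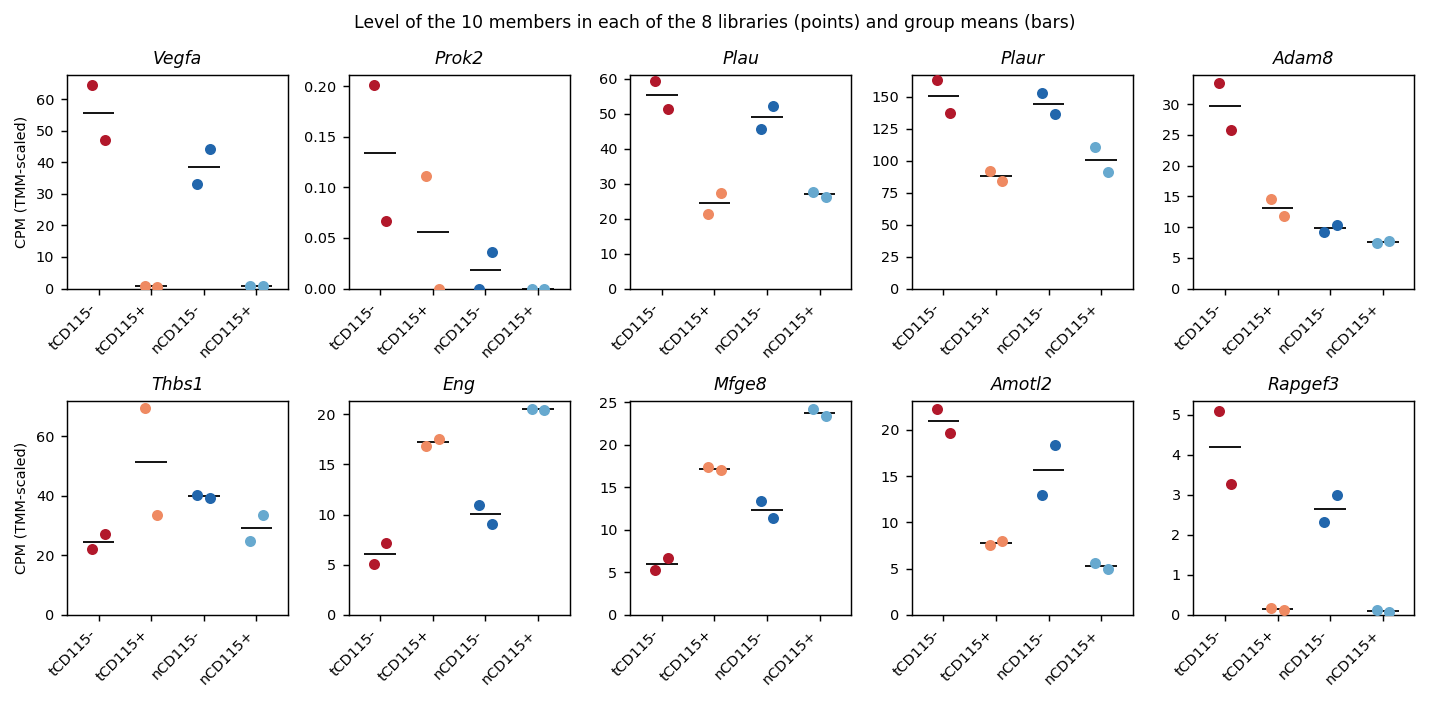
Level of the 10 genes in CPM (vertical axes, linear from 0) in each library (points; 2 per group) with the group mean (bars), for tCD115-, tCD115+, nCD115- and nCD115+. *Vegfa* and *Rapgef3* stood near 0 in all 4 CD115+ libraries, *Eng* and *Mfge8* were lower in all 4 CD115- libraries, and the tCD115+ libraries of *Thbs1* lay far apart at 69.6 and 33.5 CPM.

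The stretch of 250 bases before the annotated start was read for 5 of the genes, the 3 called higher in CD115- cells of naive mice (*Vegfa*, *Amotl2* and *Rapgef3*, where 5.73% of all tested genes were called higher), the 1 called lower (*Eng*, where 0.484% were) and *Mfge8*, which was lower by just under 2-fold, so that genes with opposite patterns stand side by side. They are RefSeq sequences of GRCm38.p6, printed 5′ to 3′ on the strand of the gene in lower case, with capitals for matches on either strand to 4 motifs: the hypoxia response core (ACGTG or GCGTG), AP-1 (TGANTCA), C/EBP (TTGCNNAA) and PU.1 (GAGGAA). A base can belong to more than 1 match.
*Vegfa* (chr17:46032378-46032627, minus strand): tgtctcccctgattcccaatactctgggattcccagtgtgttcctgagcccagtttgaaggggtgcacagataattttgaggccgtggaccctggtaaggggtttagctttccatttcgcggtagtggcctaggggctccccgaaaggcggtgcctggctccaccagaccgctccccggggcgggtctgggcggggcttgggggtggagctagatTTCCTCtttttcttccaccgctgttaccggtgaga
*Amotl2* (chr9:102717554-102717803, plus strand): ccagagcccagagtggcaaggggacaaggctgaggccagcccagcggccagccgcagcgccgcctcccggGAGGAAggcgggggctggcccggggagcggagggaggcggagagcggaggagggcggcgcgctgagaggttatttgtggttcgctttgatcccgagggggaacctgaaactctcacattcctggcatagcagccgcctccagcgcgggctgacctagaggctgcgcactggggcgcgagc
*Rapgef3* (chr15:97767667-97767916, minus strand): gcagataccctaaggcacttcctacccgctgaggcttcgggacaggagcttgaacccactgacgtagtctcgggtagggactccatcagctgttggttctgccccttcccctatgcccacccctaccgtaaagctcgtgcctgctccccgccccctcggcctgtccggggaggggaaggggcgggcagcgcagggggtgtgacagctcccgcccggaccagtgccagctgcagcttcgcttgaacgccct
*Eng* (chr2:32646345-32646594, plus strand): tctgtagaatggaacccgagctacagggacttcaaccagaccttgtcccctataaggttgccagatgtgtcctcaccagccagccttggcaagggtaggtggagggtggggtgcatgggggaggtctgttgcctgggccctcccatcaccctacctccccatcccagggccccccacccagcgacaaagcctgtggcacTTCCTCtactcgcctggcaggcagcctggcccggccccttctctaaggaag
*Mfge8* (chr7:79149061-79149310, minus strand): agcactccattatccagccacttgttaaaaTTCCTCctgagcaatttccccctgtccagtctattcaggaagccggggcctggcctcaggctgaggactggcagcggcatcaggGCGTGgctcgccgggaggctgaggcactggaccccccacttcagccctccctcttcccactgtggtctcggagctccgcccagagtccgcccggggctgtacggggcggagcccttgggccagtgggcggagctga

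RefSeq windows were found for 8 of the 10 genes, with 9 windows because *Vegfa* had a second one. The starts used differ from the outermost start of the gene span for some genes, so that the windows of *Amotl2*, *Rapgef3*, *Plaur* and *Adam8* and the second one of *Vegfa* lie within the span of the gene. Of these 9 windows, 3 held the hypoxia core (38.6% of all 32851 windows did), 2 AP-1 (6.75%), 2 C/EBP (9.56%) and 5 PU.1 (23.3%). The 8 matches to the hypoxia core upstream of *Prok2* were the most of any of the 9 windows. *Vegfa* had a PU.1 match 35 bases before the first start and no hypoxia core in that window, whereas the window at the inner start (chr17:46025164-46025413) held 2. *Plaur* had matches to 3 of the motifs, with AP-1 at 69 and C/EBP at 59 bases before the start, and *Rapgef3* had none. *Thbs1* and *Plau* had no window in the table used. A match describes the letters and says nothing of binding.

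*Vegfa* separated the subsets most. It lies on chromosome 17 (chr17:46016993-46032377, GRCm38, minus strand), and no exon of another gene overlaps its exons in GENCODE vM21. *Vegfa* had 64.6 and 46.9 CPM in tCD115-, against 0.768 and 0.591 CPM in tCD115+. In naive mice it had 33.1 and 44.1 CPM in nCD115-, against 0.888 and 0.726 in nCD115+. All 4 CD115- libraries were far above all 4 CD115+ libraries, and even the lowest values rested on 43 to 79 reads. The log2 fold change (CD115- over CD115+) was 6.34 ± 0.26 in EL4 TB mice, 80.9-fold (fitted value ± SE, described only), and 5.58 ± 0.25 in naive mice, 47.8-fold (edgeR adjusted p = 2.345e-05).

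In order of level, *Vegfa* averaged 55.8 ± 12.5 CPM in tCD115-, 38.6 ± 7.74 in nCD115-, 0.807 ± 0.115 in nCD115+ and 0.680 ± 0.125 in tCD115+ (SD, n = 2 each). The first pair of neighbours did not overlap between libraries, but the difference of tCD115- over nCD115- was 0.53 ± 0.19 on the log2 scale and did not pass the test (edgeR adjusted p = 0.107). The tCD115+ and nCD115+ libraries overlapped (log2 fold change -0.23 ± 0.28, edgeR adjusted p = 0.635). The subset difference was 0.76 ± 0.34 larger in EL4 TB than in naive mice on the log2 scale, a fitted value that was not tested because one side of it chose the genes. Markers of another lineage moved with *Vegfa*: the 15 neutrophil markers fixed for this check summed to 72490 to 117800 CPM in tCD115- and 2562 to 3112 CPM in tCD115+, and to 50680 to 66060 CPM in nCD115- and 1462 to 1678 CPM in nCD115+, with none at 0. Of the 15, 14 were called higher in tCD115- over tCD115+ and 12 in nCD115- over nCD115+, while *Mmp8* was at -0.68 and -0.06. Of all tested genes, 8.36% and 5.73% were called higher in these comparisons. Their part in the *Vegfa* difference was not tested.

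The summed markers of several other cell types were also higher in CD115- cells. Beside the counts that follow, 8.36% (EL4 TB) and 5.73% (naive) of all tested genes were called higher in CD115- cells. The 9 T and NK cell markers in the table summed to 9.94 to 19.4 CPM in tCD115-, against 0.697 to 0.922 CPM in tCD115+, and 8 of the 9 were called higher. In naive mice they summed to 11.03 to 11.5 CPM in nCD115-, against 2.53 to 2.83 CPM in nCD115+, with 5 of 9 called higher. The 8 basophil and mast cell markers summed to 37.3 to 53.8 CPM in tCD115-, against 5.24 to 6.28 CPM in tCD115+, and to 52.4 to 64.3 CPM in nCD115-, against 11.4 to 12.7 CPM in nCD115+, with 2 of 8 called higher in each host (*Kit* and *Ms4a2*). *Kit* alone, also a gene of progenitor cells, made up most of these CD115- sums, at a mean of 38.5 CPM in tCD115- and 48.6 CPM in nCD115-. The other 6 markers were not called, with *Prss34* at -0.13 and -0.40 and *Gata2* at -0.30 and -0.42. Among them *Mcpt8* (2.17 against 1.46 CPM) and *Cpa3* (0.355 against 0.185 CPM) averaged higher in tCD115- than in tCD115+. *Fcer1a* and *Cd200r3* did not, and none of these averaged higher in nCD115- by more than 1 CPM. The median log2 fold change of the 8 was 0.254 in EL4 TB and -0.021 in naive mice. Eosinophil markers summed to 18.6 to 21.3 CPM in tCD115- and 10.7 to 11.7 CPM in tCD115+, and to 21.6 to 22.5 CPM in nCD115- and 12.1 to 12.8 CPM in nCD115+. Of the 4 tested, *Siglecf* was the 1 called, higher in both hosts (means of 8.81 CPM in tCD115- and 1.43 CPM in tCD115+, and 6.81 CPM in nCD115- and 1.21 CPM in nCD115+), although the gate was set on SiglecF- cells. *Ear2*, the most abundant, was at 0.11 and 0.41 and *Epx* at -0.14 and -0.45. *Prg2* was not called either, but its mean was higher in CD115- cells of both hosts. It averaged 0.873 against 0.346 CPM in the EL4 TB subsets, and 0.6 against 0.213 CPM in the naive subsets. The median log2 fold change of these 4 was 0.708 (EL4 TB) and 0.947 (naive). Stromal markers summed to at most 2.84 CPM in any library, and most of the CD115- sums was *Col1a1* (means of 2.16 CPM in tCD115- and 1.31 CPM in nCD115-, called higher in both hosts). The other tested stromal marker, *Pdgfrb*, was at -1.09 and -1.10 and not called.

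Endothelial markers (8 of 9 in the table) summed to 2.57 to 4.11 CPM in tCD115-, against 2.15 to 2.36 CPM in tCD115+, without overlap, and to 2.23 to 2.48 CPM in nCD115-, against 2.19 to 2.32 CPM in nCD115+. Of these 8, 4 were tested, with a median log2 fold change of 0.825 in EL4 TB and 0.0691 in naive mice. *Kdr* was at 1.3 and -0.02, *Cdh5* at 0.83 and 0.16, *Egfl7* at 0.82 and 0.77 and *Vwf* at -0.09 and -0.79. *Tek*, *Esam*, *Robo4* and *Plvap* had no read in tCD115-, and *Robo4* and *Plvap* none in tCD115+. The part of all these markers in the *Vegfa* difference was not tested.

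Genes with the pattern most like that of *Vegfa* were sought among 8484 genes of at least 10 CPM on average, by the Pearson correlation of log2 CPM over the 8 libraries. They were *Sept5* (r = 0.9997), *Orm1* (0.9991), *Ets2* (0.999), *Itih5* (0.9989) and *Cd63* (0.9989). *Sept5*, a septin gene, averaged 273.9 CPM in tCD115- and 1.167 CPM in tCD115+, and 189.4 CPM in nCD115- and 1.417 CPM in nCD115+. *Orm1*, an acute phase glycoprotein gene, averaged 48.4 CPM in tCD115- and 0.245 CPM in tCD115+. *Cd63*, a tetraspanin of granule membranes, averaged 238.6 CPM in tCD115- and 2.58 CPM in tCD115+. These coefficients are a description of 8 points that fall into a CD115- and a CD115+ cluster, and the 5 genes ranked highest by Spearman correlation shared 0 with these 5.

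None of the 9 other ligand and receptor genes of the VEGF family fixed as a list was called higher in CD115- cells in either host (8 tested with edgeR; 1 in EL4 TB and 0 in naive mice were higher at an unadjusted p under 0.05, and DESeq2 called 0). *Nrp1*, the neuropilin-1 co-receptor of VEGF, was lower in tCD115- at 66.3 and 103.9 CPM, against 166.0 and 174.5 CPM in tCD115+ (log2 fold change -1.001, edgeR adjusted p = 0.00681; not called with DESeq2). *Flt1*, which encodes VEGF receptor 1, was lower with the tumor in both subsets. It had 3.11 to 4.43 CPM in tCD115- against 12.3 to 14.4 CPM in nCD115- (log2 fold change -1.82, edgeR adjusted p = 0.0162), and 2.16 to 2.48 CPM in tCD115+ against 12.7 to 22.5 CPM in nCD115+ (-2.92, edgeR adjusted p = 0.00517). The median log2 fold change of the 8 genes was -0.44 in EL4 TB and -0.428 in naive mice between the subsets, and -0.334 and -0.163 with the tumor in CD115- and CD115+ cells. The same medians over all tested genes were -0.0536, -0.00948, 9.97e-05 and 0.017.

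Of the 15 hypoxia-response genes on the list, 14 were tested and 1 was called between the subsets. *Egln3*, an oxygen-sensing prolyl hydroxylase gene, had 11.7 to 18.6 CPM in tCD115- against 1.93 to 2.04 CPM in tCD115+, and 7.88 to 10.9 CPM in nCD115- against 1.72 to 2.04 CPM in nCD115+ (log2 fold changes 2.93 and 2.32, edgeR adjusted p = 0.000255 and 0.00105). *Ldha*, which encodes a lactate dehydrogenase subunit and was the most abundant of the list, had log2 fold changes of 0.45 and 0.43 between the subsets and 0.65 and 0.62 with the tumor, all under 2-fold. The median of the list was -0.395 and -0.0839 between the subsets and 0.00938 and 0.0618 with the tumor. With the tumor 0 were called with edgeR or DESeq2, while at an unadjusted edgeR p under 0.05 there were 3 higher and 4 lower in CD115- cells and 4 higher and 0 lower in CD115+ cells.

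*Prok2*, which encodes the secreted angiogenic peptide prokineticin 2 (chr6:99711299-99726392), was barely detected. It had 17 and 6 reads in tCD115-, against 11 and 0 in tCD115+, and 0 and 3 reads in nCD115-, against 0 and 0 in nCD115+. Both EL4 TB groups thus had a library with over 10 reads, while the naive groups had at most 3. Since the gene passed the filter on low counts only through those 2 EL4 TB libraries, its reads are a description, and no fold is drawn from them. *Prok2* was not called in any of the 3 comparisons that were tested. Its receptor gene *Prokr1*, the 1 of 3 listed prokineticin genes in the table, averaged 0.0557 CPM in tCD115-, against 0.241 CPM in tCD115+, and 0.130 CPM in nCD115- and 0.289 CPM in nCD115+, and was not called.

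**Figure D2:**
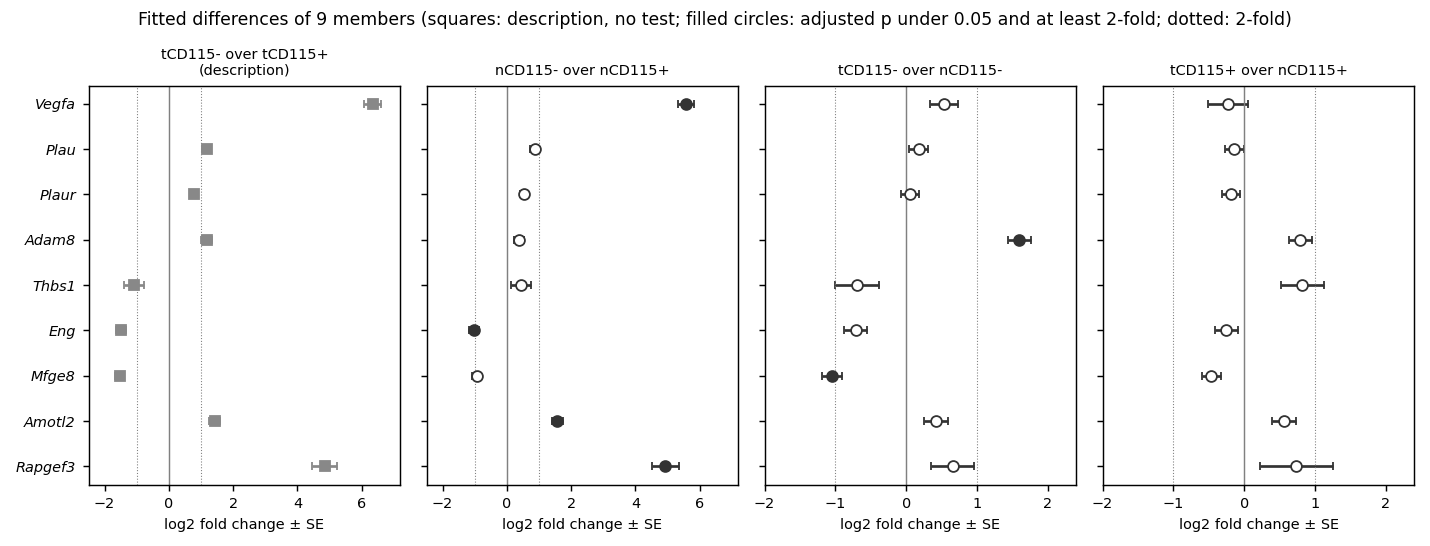
Fitted log2 fold changes ± SE (horizontal axes) of 9 genes (rows) in the 4 comparisons, with grey squares for the comparison that is described without a test, circles for the others, filled where called, and dotted lines at 2-fold; *Prok2* is left out because a group had no read. *Vegfa* and *Rapgef3* lie beyond 4 in both subset comparisons, and only *Adam8* and *Mfge8* are filled with the tumor in CD115- cells.

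The 2 genes of the urokinase system were higher in CD115- cells by less than *Vegfa*. *Plau* had 59.3 and 51.2 CPM in tCD115-, against 21.4 and 27.4 CPM in tCD115+, and 45.7 and 52.2 CPM in nCD115-, against 27.5 and 26.2 in nCD115+. *Plaur* had 163 and 137 CPM in tCD115-, against 91.7 and 84.2 CPM in tCD115+, and 153 and 136 CPM in nCD115-, against 110 and 90.7 in nCD115+. For both genes every CD115- library was above every CD115+ library. The *Plau* difference was 1.18 ± 0.14 (log2) in EL4 TB mice and 0.86 ± 0.14 in naive mice (edgeR adjusted p = 0.00514, under 2-fold). The *Plaur* difference was 0.77 ± 0.13 in EL4 TB mice and 0.52 ± 0.13 in naive mice (edgeR adjusted p = 0.0311, under 2-fold). With the tumor, *Plau* and *Plaur* overlapped between libraries in both subsets, with fitted differences between -0.19 and 0.18.

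Among the other genes of plasminogen activation, 6 of 9 were in the table and 4 were tested. *Serpine2*, which encodes a protease inhibitor that also blocks urokinase, was higher in CD115- cells of both hosts: 9.22 to 17.5 CPM in tCD115- against 0.550 to 0.627 CPM in tCD115+, and 10.2 to 14.2 CPM in nCD115- against 0.491 to 0.630 CPM in nCD115+. Its log2 fold changes were 4.49 and 4.44 (edgeR adjusted p = 0.000154 and 0.000234). *Lrp1*, the endocytic receptor that clears urokinase complexes and the most abundant of the list, was not called, with -0.61 and -0.69 between the subsets. The median of the 4 was -0.0808 in EL4 TB and 0.135 in naive mice, and with the tumor 0 were called with edgeR or DESeq2 and 0 had an unadjusted edgeR p under 0.05.

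*Adam8*, which encodes a membrane metalloproteinase of leukocytes (chr7:139978932-139995207), differed with the tumor. It had 33.5 and 25.8 CPM in tCD115-, against 9.26 and 10.4 CPM in nCD115-, and 14.6 and 11.8 CPM in tCD115+, against 7.47 and 7.74 CPM in nCD115+. In both subsets the EL4 TB libraries were above the naive ones. The tCD115- and tCD115+ libraries also entered the choice of the genes, so the p-values with the tumor are not independent of it. The difference in CD115- cells was 1.60 ± 0.16 on the log2 scale, 3.02-fold (edgeR adjusted p = 0.00468), and the difference in CD115+ cells was 0.79 ± 0.16 (edgeR adjusted p = 0.0267, under 2-fold). Without nCD115- replicate 1 the first kept its size at 1.51 and did not pass the test (edgeR adjusted p = 0.0608). Between the subsets *Adam8* was 1.17 ± 0.16 higher in tCD115- on the log2 scale, and 0.37 ± 0.16 higher in nCD115- (edgeR adjusted p = 0.154, not called), so that the fitted subset difference was 0.80 ± 0.22 larger in EL4 TB mice. The sum of neutrophil markers was also higher in tCD115- (72490 to 117800 CPM) than in nCD115- (50680 to 66060 CPM). Of the 15 markers 3 were called higher, beside 0.855% of all tested genes. In CD115+ cells the sum was also higher in tCD115+ (2562 to 3112 CPM) than in nCD115+ (1462 to 1678 CPM). There 4 of 15 were called higher, beside 0.939% of all tested genes. The part of these markers in the *Adam8* differences was not tested. Exons of *Gm16201* on the opposite strand share 0.992% of the exon bases of *Adam8*.

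Of the 9 other ADAM genes listed, 6 were tested, and *Adam12* was the 1 called between the subsets. It had 81 reads in tCD115- and none in tCD115+, at least 26.6-fold higher, and 72 reads in nCD115- and none in nCD115+, at least 26-fold higher. *Adam12* passed the filter on low counts only through CD115- libraries, so its call and these folds are a description. *Adam10*, the abundant sheddase of many membrane proteins, had log2 fold changes of -0.09 and 0.14 between the subsets. The median was -0.585 and -0.437 between the subsets, also with *Adam12* at its bound. With the tumor 0 were called with edgeR or DESeq2, and at an unadjusted edgeR p under 0.05 there was 1 lower in CD115- cells and 1 higher and 1 lower in CD115+ cells.

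Of 11 listed genes of matrix metalloproteinases and their inhibitors 7 were tested. Of these, 2 were called higher in CD115- cells of EL4 TB mice, 2 in naive mice, 2 in tCD115- over nCD115- and 1 in tCD115+ over nCD115+. Of all tested genes, 8.36%, 5.73%, 0.855% and 0.939% were called higher in these comparisons. In tCD115+ over nCD115+ 1 of the 7 was called lower, beside 1.66% of all tested genes. *Mmp25*, a membrane-bound protease of leukocytes, had 90.6 to 122.3 CPM in tCD115- against 8.01 to 8.13 CPM in tCD115+, and 35.2 to 56.0 CPM in nCD115- against 3.04 to 3.23 CPM in nCD115+. It was called in all 4 comparisons (log2 fold changes 3.72, 3.86, 1.22 and 1.36, highest edgeR adjusted p = 0.021). *Mmp9*, the gelatinase of tertiary neutrophil granules, had 41.9 to 111.4 CPM in tCD115- against 2.23 to 6.32 CPM in tCD115+, and 8.54 to 14.7 CPM in nCD115- against 0.855 to 1.504 CPM in nCD115+. Its tumor difference in CD115- cells was 2.73 (edgeR adjusted p = 0.0467) with libraries that differed by more than 2-fold within tCD115-. *Timp2*, an inhibitor of these proteases, was lower in tCD115+ than in nCD115+ (-1.29, edgeR adjusted p = 0.00415). The neutrophil marker sums given beside *Vegfa* were also higher in CD115- cells and with the tumor, and their part in these differences was not tested. The median of the 7 genes was -0.0992 and -0.0557 between the subsets, and 0.975 and 0.804 with the tumor. Over all tested genes the medians were -0.0536 and -0.00948, and 9.97e-05 and 0.017.

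*Thbs1* was the gene whose 2 hosts went apart. It had 22.1 and 27.0 CPM in tCD115-, against 69.6 and 33.5 CPM in tCD115+, while in naive mice it had 40.2 and 39.4 CPM in nCD115-, against 24.9 and 33.7 in nCD115+. CD115- libraries were below CD115+ libraries in EL4 TB mice and above them in naive mice, with no overlap in either. The log2 difference was -1.07 ± 0.31 in EL4 TB mice and 0.44 ± 0.31 in naive mice (edgeR adjusted p = 0.351, not called). With the tumor it was -0.70 ± 0.31 in CD115- cells (edgeR adjusted p = 0.166) and 0.82 ± 0.31 in CD115+ cells (edgeR adjusted p = 0.128). One library decided much of this: without tCD115+ replicate 1, the EL4 TB subset difference was -0.45 and the tumor difference in CD115+ cells 0.20. Platelets also carry thrombospondin-1. The 8 megakaryocyte and platelet markers in the table (of 9) summed to 5.78 to 15.0 CPM in tCD115-, against 1.25 to 1.49 CPM in tCD115+, and to 11.7 to 12.3 CPM in nCD115-, against 1.56 to 1.61 CPM in nCD115+, but most of the CD115- sums was *Gp1bb* alone (on average 8.56 CPM in tCD115- and 10.1 CPM in nCD115-). The 6 tested markers lay in both directions, with a median log2 fold change of 0.834 in EL4 TB mice and -0.275 in naive mice. In tCD115- over tCD115+, *Gp1bb* (5.93) and *Gp9* (4.197) were called higher and *Treml1* was called lower (-1.51, edgeR adjusted p = 0.0424), while *Ppbp* was at -2.16 and *Pf4* at 1.02. In naive mice *Treml1*, *Ppbp* and *Pf4* were at -1.14, -0.90 and -1.55. *Gp1bb* was called higher there (7.16, edgeR adjusted p = 0.000826), and *Gp9* was at 3.83 and not called. *Gp9* passed the filter on low counts only through CD115- libraries, so its EL4 TB call is a description. *Itga2b* was at 0.65 in EL4 TB and 0.35 in naive mice and not called. Their part in the *Thbs1* values was not tested. Exons of *Gm29233* on the opposite strand share 3.42% of the exon bases of *Thbs1* (chr2:118111876-118127133).

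Of 5 other thrombospondin and receptor genes, 4 were tested. *Cd36*, a scavenger receptor that binds thrombospondin-1, was lower with the tumor in both subsets (log2 fold changes -1.99 and -1.24, edgeR adjusted p = 0.0126 and 0.0336). *Thbs4* was called higher in tCD115- over tCD115+ (5.75, edgeR adjusted p = 0.00448) at a low level, with a mean ± SD of 1.05 ± 0.25 CPM in tCD115-, against 0.0206 ± 0.0292 in tCD115+ (n = 2 each). *Thbs4* passed the filter on low counts only through CD115- libraries, so its call is a description. *Cd47*, the most abundant of the list, was not called. The median of the 4 was 0.0741 and 0.0708 between the subsets, and 0.382 and -0.131 with the tumor.

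*Eng* and *Mfge8* ran the other way from *Vegfa*. *Eng* had 5.09 and 7.12 CPM in tCD115-, against 16.8 and 17.6 CPM in tCD115+, and 10.98 and 9.08 CPM in nCD115-, against 20.6 and 20.4 in nCD115+. *Mfge8* had 5.23 and 6.69 CPM in tCD115-, against 17.4 and 17.0 CPM in tCD115+, and 13.4 and 11.3 CPM in nCD115-, against 24.2 and 23.3 in nCD115+. Each gene was lowest in tCD115- and highest in nCD115+, with no library of one group inside the range of another.

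Between the subsets the log2 difference of *Eng* was -1.49 ± 0.17 in EL4 TB mice and -1.03 ± 0.16 in naive mice (edgeR adjusted p = 0.00554, called lower), and that of *Mfge8* was -1.53 ± 0.14 and -0.94 ± 0.14 (edgeR adjusted p = 0.00351 in naive mice, under 2-fold). With the tumor in CD115- cells *Mfge8* was 1.05 ± 0.14 lower on the log2 scale (edgeR adjusted p = 0.0106, called lower) and *Eng* 0.72 ± 0.17 lower (edgeR adjusted p = 0.0402, under 2-fold). In CD115+ cells neither passed the test (-0.25 for *Eng* and -0.47 for *Mfge8*, edgeR adjusted p = 0.339 and 0.0663). These p-values with the tumor are not independent of the choice of the genes, which used the tCD115- and tCD115+ libraries. The *Eng* call in naive mice was lost without nCD115- replicate 2 (-0.90, edgeR adjusted p = 0.0627), and the *Mfge8* call was lost without tCD115- replicate 1 (-0.89, edgeR adjusted p = 0.0073, under 2-fold) or nCD115- replicate 1 (-0.93, edgeR adjusted p = 0.0972).

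The sum of the 10 monocyte markers moved with these 2 genes, at 6248 to 8152 CPM in tCD115-, 11590 to 11710 CPM in tCD115+, 9177 to 9911 CPM in nCD115- and 11880 to 13000 CPM in nCD115+. Of the 10, 7 were called lower in tCD115- over tCD115+, beside 3.97% of all tested genes, with a median of -1.09. *Itgam* went the other way (0.80 in EL4 TB and 0.59 in naive mice). In naive mice edgeR called 0 of the 10, beside 0.484% of all tested genes called lower, and the median was -0.555. The 9 bone marrow macrophage markers summed to 147 to 168 CPM in tCD115- and 168 to 179 CPM in tCD115+, and to 268 to 269 CPM in nCD115- and 250 to 299 CPM in nCD115+, where *Vcam1* was called higher in CD115- cells of both hosts (6.896 and 6.035) and *Adgre1* was at -0.85 and -0.34. Between the subsets, 1 of the 9 was called lower in tCD115- and 2 in nCD115-. Their median log2 fold change was -0.0218 (EL4 TB) and -0.0717 (naive). The tumor comparisons called 3 of the 9 lower in tCD115- and 2 in tCD115+. Beside these and the tumor counts that follow, 2.43% (CD115-) and 1.66% (CD115+) of all tested genes were called lower. The 9 dendritic cell markers summed to 95.3 to 112 CPM in tCD115-, against 248 to 330 CPM in nCD115-, and to 121 to 161 CPM in tCD115+, against 481 to 504 CPM in nCD115+, and of the 8 tested 6 were called lower with the tumor in CD115- and 5 in CD115+ cells. B cell markers (3 of 8 called lower with the tumor in each subset) summed to 9.17 to 14.0 CPM in tCD115- and 10.7 to 14.0 CPM in tCD115+, against 23.8 to 28.4 CPM in nCD115- and 26.7 to 27.6 CPM in nCD115+. Erythroid markers summed to at most 1.47 CPM in any EL4 TB library and to 4.05 to 17.2 CPM in the naive libraries, where *Hba-a2* had the largest part (means of 5.79 CPM in nCD115- and 4.39 CPM in nCD115+, not called with the tumor). These markers moved with the tumor as *Mfge8* and *Eng* did in CD115- cells, and as *Flt1*, *Cd36*, *Axl* and *Pdgfb* did, and the part of all these markers was not tested. *Eng* (chr2:32646595-32682669) is also known as an endothelial gene, and the endothelial markers are given beside *Vegfa*. Exons of *Fpgs* on the opposite strand share 1.51% of the exon bases of *Eng*, and *Fpgs* stood between 3.24 and 6.37 CPM in all libraries.

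Around endoglin, 13 of 15 listed genes of the TGF-beta and BMP9 pathway were tested, and 0 were called higher in any comparison with edgeR or DESeq2, with at most 1 higher at an unadjusted edgeR p under 0.05. *Smad6*, an inhibitory SMAD, was lower in tCD115- (1.54 to 2.30 CPM) than in tCD115+ (4.18 to 4.45 CPM; log2 fold change -1.16, edgeR adjusted p = 0.00881). *Tgfbr3*, the betaglycan gene, was lower in tCD115+ than in nCD115+ (-1.55, edgeR adjusted p = 0.0262). *Tgfb1* was the most abundant at a mean of 307.4 CPM and was not called. The median of the list was -0.337 and -0.19 between the subsets, and -0.276 and -0.168 with the tumor.

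Around MFG-E8, 8 of 10 genes of apoptotic cell bridging and its integrins were tested. *Pros1*, which encodes the bridging protein S, had 30.2 to 46.2 CPM in tCD115- against 83.6 to 87.1 CPM in tCD115+ (log2 fold change -1.16, edgeR adjusted p = 0.00325). *Itgb5*, a beta subunit of the integrins that bind MFG-E8, had 22.6 to 33.7 CPM in tCD115- against 60.3 to 62.7 CPM in tCD115+ (-1.13, edgeR adjusted p = 0.00265). The other beta subunit, *Itgb3*, was higher in tCD115- at 36.0 to 36.1 CPM, against 16.7 to 17.4 CPM in tCD115+ (1.08, edgeR adjusted p = 6.83e-05), and was lower in tCD115+ than in nCD115+ (-1.71, edgeR adjusted p = 0.000317). *Axl*, a receptor of bridging proteins, was lower in tCD115- than in nCD115- (-1.04, edgeR adjusted p = 0.0078). In naive mice 0 of the 8 were called between the subsets with edgeR or DESeq2, and 1 was higher and 3 were lower at an unadjusted edgeR p under 0.05. The median was -1 and -0.586 between the subsets, and -0.659 and -0.456 with the tumor.

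The 2 intracellular genes followed *Vegfa*. *Amotl2*, which encodes an angiomotin family protein of cell junctions and the Hippo pathway (chr9:102717091-102733418), had 22.3 and 19.6 CPM in tCD115-, against 7.56 and 7.99 CPM in tCD115+, and 13.01 and 18.4 CPM in nCD115-, against 5.58 and 4.97 in nCD115+. Its log2 difference was 1.43 ± 0.17 in EL4 TB mice and 1.57 ± 0.17 in naive mice (edgeR adjusted p = 0.000935, called higher). *Rapgef3*, which encodes the cAMP-activated RAP1 exchange factor EPAC1, had 5.10 and 3.28 CPM in tCD115-, against 0.172 and 0.110 CPM in tCD115+, and 2.33 and 2.99 CPM in nCD115-, against 0.112 and 0.0614 in nCD115+. Its log2 difference was 4.85 ± 0.39 in EL4 TB mice and 4.93 ± 0.41 in naive mice (edgeR adjusted p = 0.000252, called higher). All CD115- libraries of both genes were above all CD115+ libraries, with 6 to 17 reads of *Rapgef3* in the CD115+ libraries.

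With the tumor neither gene was called: *Amotl2* differed by 0.42 in CD115- and 0.56 in CD115+ cells (edgeR adjusted p = 0.135 and 0.0789), and *Rapgef3* by 0.66 and 0.73 (edgeR adjusted p = 0.18 and 0.382). *Rapgef3* (chr15:97744770-97768419) shares 6.11% of its exon bases with 2 antisense genes, *Rapgef3os1* and *Rapgef3os2*. The libraries were stranded, but whether reads were counted by strand is not stated in the sources used here, so reads of these partners cannot be told apart from those of *Rapgef3*.

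Of 12 angiomotin and Hippo pathway genes 4 were tested, and *Amot*, the first angiomotin, was lower in tCD115- (3.47 to 3.52 CPM) than in tCD115+ (7.39 to 7.66 CPM; log2 fold change -1.11, edgeR adjusted p = 0.000614), the other direction from *Amotl2*. The median was -0.061 and -0.0866 between the subsets, and -0.184 and -0.0843 with the tumor. Of 11 RAPGEF and RAP1 genes 10 were tested. *Rapgef5*, another exchange factor, was called higher in tCD115- (1.48, edgeR adjusted p = 0.0477), while its naive difference was 1.56 and not called with edgeR (adjusted p = 0.0766), and DESeq2 called it in both hosts. *Rasip1*, a RAP1-binding protein gene of vessels, was at 1.51 in EL4 TB mice (edgeR adjusted p = 0.108, not called) and was called higher in nCD115- (2.68, edgeR adjusted p = 0.0441) at 0.683 ± 0.238 CPM in nCD115- and 0.103 ± 0.114 CPM in nCD115+ (SD, n = 2 each). *Rap1b*, the most abundant, was not called. The median was 0.211 and 0.177 between the subsets, and -0.0772 and -0.0789 with the tumor.

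Of 12 further angiogenic growth factor and receptor genes, 9 were tested. *Tie1*, an endothelial receptor kinase gene, was called higher in CD115- cells of both hosts (2.24 and 1.59, edgeR adjusted p = 0.00855 and 0.0474) at no more than 1.82 ± 0.153 CPM in any group (nCD115-; SD, n = 2). *Fgf1* and *Pdgfa* had no read in tCD115- and 39 and 18 reads in tCD115+, at least 13.2-fold and 6.09-fold lower in tCD115-, but 16 of the 18 *Pdgfa* reads came from tCD115+ replicate 1. *Fgf1* passed the filter on low counts only with its tCD115+ libraries, so its call and fold are a description. *Pdgfb* was lower with the tumor in both subsets (-2.15 and -2.97, edgeR adjusted p = 0.0192 and 0.00928). The median was -0.759 and 0.116 between the subsets, and -2.15 and -0.709 with the tumor, also with genes at their bound.

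**Figure D3:**
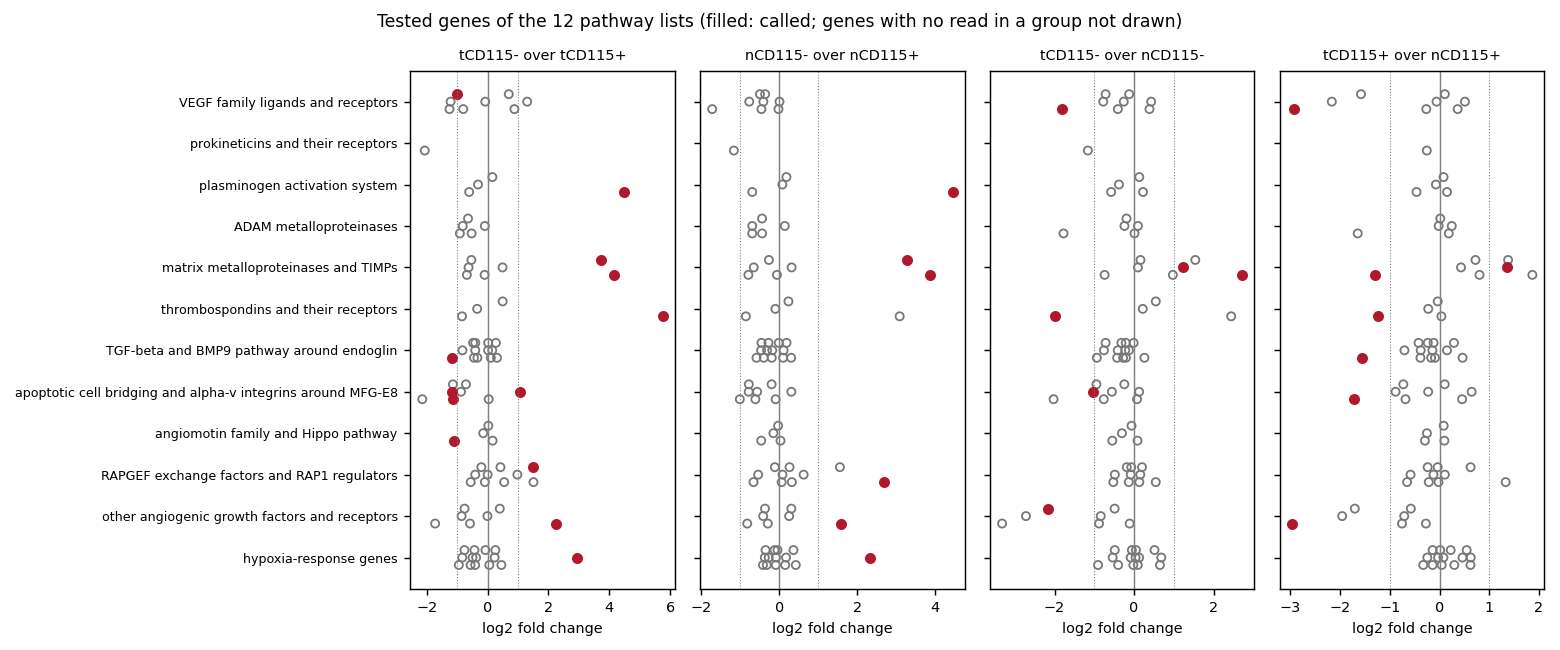
Log2 fold change (horizontal axes) of the tested genes of 12 pathway lists (rows) in the 4 comparisons, with filled points for called genes and dotted lines at 2-fold; *Adam12*, *Fgf1* and *Pdgfa*, which had no read in a group, are not drawn. Most points lie between the dotted lines, and filled points to the right in the subset panels include *Serpine2*, *Mmp9*, *Mmp25* and *Egln3*.

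Counted together, the 12 lists held 121 genes, of which 104 were in the table and 88 were tested. Between the subsets 9 were called higher and 7 lower in tCD115-, beside 8.36% and 3.97% of all tested genes, and 7 higher and 0 lower in nCD115- with edgeR, where DESeq2 also called 0 lower and 15 were lower at an unadjusted edgeR p under 0.05. In naive mice 5.73% of all tested genes were called higher and 0.484% lower. *Adam12*, *Thbs4* and *Fgf1*, among the genes counted, passed the filter on low counts only with their high groups, so those calls are a description. With the tumor 2 were called higher and 4 lower in CD115- cells, beside 0.855% and 2.43% of all tested genes, and 1 higher and 6 lower in CD115+ cells, beside 0.939% and 1.66%.

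Calls of the 10 genes are counted for 3 of the 4 comparisons, leaving out tCD115- over tCD115+, by which they were chosen. In nCD115- over nCD115+, 3 were called higher (*Vegfa*, *Amotl2*, *Rapgef3*) and 1 lower (*Eng*), beside 5.73% and 0.484% of all tested genes. In tCD115- over nCD115-, 1 was called higher (*Adam8*) and 1 lower (*Mfge8*), beside 0.855% and 2.43% of all tested genes. In tCD115+ over nCD115+ 0 were called with edgeR and 0 with DESeq2, beside 0.939% and 1.66% of all tested genes called higher and lower, and 4 (*Adam8*, *Thbs1*, *Mfge8* and *Amotl2*) had an unadjusted p under 0.05 in edgeR. Among the 9 genes other than *Prok2*, libraries of the compared groups did not overlap for 6 genes higher and 3 lower in tCD115- over tCD115+ (31.4% and 40.1% of all tested genes), a count that the choice of the genes fixed and that shows nothing further, and for 7 higher and 2 lower in nCD115- over nCD115+ (33.4% and 33.4%). With the tumor there were 4 higher and 3 lower in CD115- cells (28.3% and 30% of all tested genes), and 2 higher and 2 lower in CD115+ cells (36.3% and 31.1%). The tumor comparisons share the tCD115- and tCD115+ libraries with the EL4 TB subset comparison, by which the genes were chosen. Their p-values and counts for the 10 genes are thus not independent of that choice.

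The median log2 fold change of the 9 genes other than *Prok2* was 1.17 in EL4 TB mice and 0.524 in naive mice between the subsets, and 0.176 and -0.143 with the tumor in CD115- and CD115+ cells. The value of 1.17 was fixed by the choice of the genes and shows nothing further. *Prok2* was left out because no fold is drawn from its few reads. Over all tested genes the medians were -0.0536, -0.00948, 9.97e-05 and 0.017.

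Levels between genes were compared per length with the FPKM values of the table. *Plaur* was the highest of the 10 in every group, at 92.2 ± 7.82 FPKM in tCD115-, 59.7 ± 3.37 in tCD115+, 91.6 ± 8.88 in nCD115- and 68.8 ± 10.7 in nCD115+ (SD, n = 2 each). *Vegfa* ranked 3 of 10 at 15.3 FPKM in tCD115- and 8 of 10 at 0.199 FPKM in tCD115+, and likewise 3 at 10.9 FPKM in nCD115- and 8 at 0.231 FPKM in nCD115+. *Mfge8* ranked 7 at 2.67 FPKM in tCD115- and 4 at 8.43 FPKM in tCD115+, and 5 at 5.68 FPKM in nCD115- and 3 at 11.8 FPKM in nCD115+. In nCD115+ *Plau* (11.4 to 12.3 FPKM) and *Mfge8* (11.4 to 12.1 FPKM) overlapped, and in tCD115+ *Thbs1* (5.88 to 12.2 FPKM) spanned both *Mfge8* (8.35 to 8.52 FPKM) and *Plau* (9.30 to 11.99 FPKM), so these ranks are not set.

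**Figure D4:**
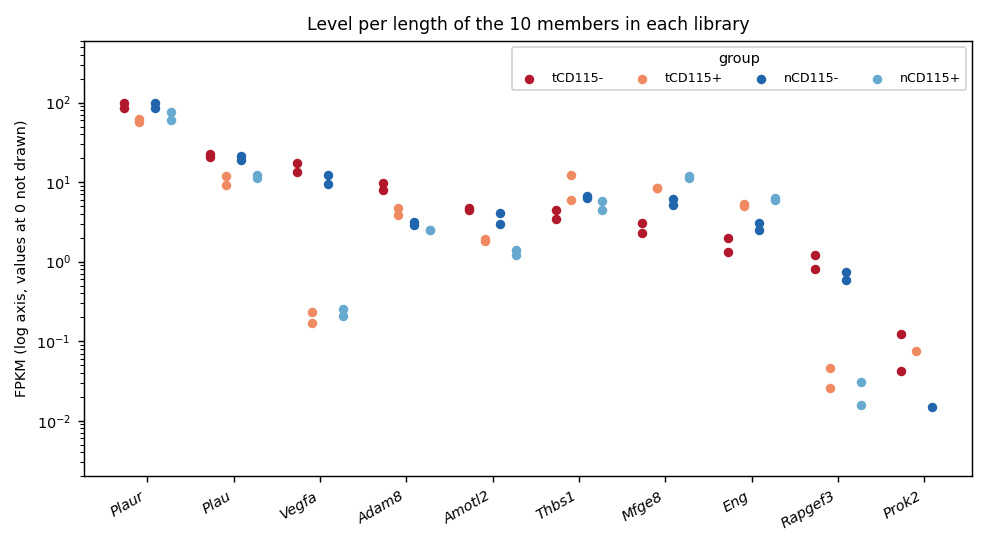
FPKM of the 10 genes (vertical log axis) in each library, coloured by group, in the order of their mean in tCD115-; values of 0 are not drawn. *Plaur* lies above all others in every group, and *Vegfa* and *Rapgef3* show the widest gap between CD115- and CD115+ libraries.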

How the data were processed

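The authors deposited 1 table with raw read counts per gene and library and, beside them, FPKM values (fragment counts scaled by transcript length and depth) made by the authors, both from mouse libraries of the TruSeq Stranded mRNA kit. The submitters' processing notes name, among other tools, HISAT2 2.0.5 and StringTie 1.3.3b and the build mm10, without giving their roles. Not used here were 12 columns that hold other values of samples or groups, and 24 columns with the authors' own comparisons (such as fold changes and p-values).

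Counts were analysed with R 4.3.3 and edgeR 4.0.16: filterByExpr (minimum count 10) kept 13211 of 16160 genes, libraries were scaled by TMM, and 1 quasi-likelihood model with robust estimation and 1 mean per group was fitted to all 8 libraries, leaving 4 residual degrees of freedom. P-values were adjusted over all tested genes by Benjamini-Hochberg, and a call needed an adjusted p under 0.05 and a change of 2-fold or more. No exact permutation test was run, since 2 libraries a group allow no p below 0.333. A group without reads was set to a floor of 3 counts, which covers counting error only. On simulated data, 78% of genes changed 2.5-fold and 87% of those changed 4-fold were recovered in nCD115- over nCD115+, 77% and 86% in tCD115- over nCD115-, and 83% and 92% in tCD115+ over nCD115+ (100 genes of each fold among 13211). DESeq2 1.42.0, limma 3.58.1 (voom), other scalings and filters, a replicate block and leaving out each library were tried as alternatives. Promoters were searched for matches with Python 3.11.15, and plots were drawn with matplotlib 3.10.9.

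Same-numbered replicates of different groups did not deviate together (correlations of -0.099 to 0.0778 over 13211 genes), so the numbers were not treated as pairs. Replicates of each group differed by more than sampling noise. Named genes were the 10 members, up to 2 called genes of highest mean CPM per pathway list, comparison and direction (or the most abundant gene where none was called), the 5 genes most like *Vegfa*, and markers of other cell types. The members, lists and tests were chosen with earlier results of these data known. Cell type markers were 12 lists from textbook knowledge.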

Additional observations from a re-analysis of the deposited data

Results flagged for a closer look

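*Thbs1* was flagged because its subset difference went in opposite directions in the 2 hosts, with no overlap between the libraries of the subsets in either. Such separation was common with 2 libraries a group. In tCD115- over tCD115+, 40.1% of all tested genes were lower without overlap, and in nCD115- over nCD115+ 33.4% were higher. The share of genes separated in opposite directions was not counted. The naive difference of *Thbs1* was not called (edgeR adjusted p = 0.351). The log2 fold change of CD115- over CD115+ was -1.07 in EL4 TB mice (22.1 and 27.0 CPM in tCD115-, against 69.6 and 33.5 CPM in tCD115+) and 0.445 in naive mice (nCD115- libraries at 40.2 and 39.4 CPM, nCD115+ libraries at 24.9 and 33.7 CPM). The fitted difference between these 2 values was -1.52 ± 0.44. The difference between the hosts was not tested, and without tCD115+ replicate 1 the EL4 TB value was -0.45. No other of the 10 genes changed direction in this way between hosts or between subsets. Groups of 2 libraries are too small to look for a library that lies apart.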

How the results depend on the processing

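Of 932 values recomputed under alternatives for 95 results, 862 were labelled as unchanged. For a fold change or level this meant the same direction and side of the threshold, or a move within the spread. For a count of called genes or members it meant a bounded ratio to the main count. By this rule 738 genes called higher in tCD115- over tCD115+, against 1105, still passed as unchanged. With library totals alone, all tested genes shifted by -0.143 (log2) in tCD115- over tCD115+ and -0.112 in nCD115- over nCD115+. With this scaling 840 genes were called lower in EL4 TB mice, against 525 with TMM, so that 54.6% instead of 67.8% of the calls were higher, and 103 in naive mice, against 64, with 2 members lower (*Eng* and *Mfge8*) instead of 1. DESeq2 called 172 genes higher in tCD115- over nCD115-, against 113. A fit of only the 4 libraries compared gave 255 genes lower in tCD115- over tCD115+, and 13 higher and 23 lower in tCD115- over nCD115-, with 0 members lower (*Mfge8* stayed at -1.05, edgeR adjusted p = 0.0916).

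With at least 10 counts in every library, 738 genes were higher in tCD115- over tCD115+, against 1105. Leaving out 1 library at a time, genes higher in that comparison ranged from 886 to 1179 and genes lower from 196 to 1127 (without tCD115- replicate 1 or 2). In nCD115- over nCD115+, genes higher ranged from 492 to 832 and genes lower from 8 to 94. In tCD115- over nCD115-, genes higher ranged from 8 to 243 and genes lower from 28 to 816. In tCD115+ over nCD115+, genes higher ranged from 14 to 173 and genes lower from 27 to 315. Members lower in nCD115- over nCD115+ ranged from 0 to 2, and members higher and lower in tCD115- over nCD115- each from 0 to 1. Sign changed for 2 small differences: *Plaur* in tCD115- over nCD115-, at -0.075 without tCD115- replicate 1 and -0.025 without nCD115- replicate 2 (range -0.075 to 0.174), and *Plau* in tCD115+ over nCD115+, at 0.026 without tCD115+ replicate 1 (range -0.331 to 0.026). The naive calls of *Vegfa*, *Amotl2* and *Rapgef3* were kept under every alternative that gave a value, with *Vegfa* between 5.36 and 5.78. *Rapgef3* and *Prok2* gave no value under the filter of 10 counts in every library, and *Prok2* none where both groups compared had no read. The cause of these changes was not tested, beyond the fewer libraries in the fits.

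With the replicate block, 1062 genes were higher and 528 lower in tCD115- over tCD115+, 712 and 52 in nCD115- over nCD115+, 89 and 288 in tCD115- over nCD115-, and 106 and 189 in tCD115+ over nCD115+, and no call of a member changed. At these depths *Prok2* and the CD115+ levels of *Rapgef3* rested on at most 17 reads in a library.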
